A study of Homo sapiens with 15 samples.

Results

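The genes described here are the numbered long noncoding RNA genes that were expressed in SW480 cells, a human colorectal cancer cell line that the labels call intestinal epithelial. They are the rows of the deposited table named LINC or SNHG with a number, and with a mean of at least 0.5 FPKM over 12 libraries. FPKM counts fragments per kilobase of transcript, scaled to the fragments mapped in the library. Of 57905 rows, 638 carry such a name, and 114 of these met the threshold, 13 SNHG genes and 101 LINC genes. They were chosen by their measured level, so that level is given as a description. LINC00337 at 0.5059 FPKM was the lowest row kept, with LINC00863 at 0.5225 and LINC00431 at 0.5253 next. LINC01116 at 0.4838, LINC01002 at 0.4719 and LINC00634 at 0.4424 FPKM fell just short.

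The 12 libraries form 4 groups of 3, all from SW480 cells in medium with serum. The group PINT shRNA1+LPS is labelled as cells with a lentiviral short hairpin RNA against PINT, exposed to lipopolysaccharide (LPS, from the wall of Gram-negative bacteria) at 1 µg/ml for 4 h. PINT shRNA1 is labelled with the same hairpin and PBS, LPS is labelled as wild-type cells given the same LPS exposure, and Control as wild-type cells given PBS. No non-targeting hairpin is named in the labels, nor a number of clones, and they do not say whether replicates were separate cultures, so p-values measure the spread between these libraries. The targeted RNA went against the labels: LINC-PINT was at 3.54, 4 and 4.08 FPKM in the PINT shRNA1+LPS libraries, against 2.4, 2.82 and 1.91 FPKM in LPS, and at 4.55, 5.26 and 5.34 FPKM in the PINT shRNA1 libraries, against 2.88, 2.56 and 2.51 FPKM in Control. It was thus higher in the libraries labelled with the hairpin (log2 difference 0.61 ± 0.118 under LPS, SE, limma adjusted p = 0.00284, and 0.81 ± 0.118 without LPS, limma adjusted p = 0.000592), and "PINT shRNA1" below is only the name of those libraries. Read depth is unknown in absolute terms. Relative to the first Control library it was estimated at 1.3 to 1.51 in PINT shRNA1+LPS, 0.914 to 1.05 in PINT shRNA1, 0.848 to 0.859 in LPS and 0.809 to 1 in Control. Genes above 0 FPKM numbered 30950 to 31961, 30725 to 31159, 27078 to 27425 and 27536 to 28430 in the same groups. Of 8 epithelial markers, CDX1 was at 0 in every library and the other 7 were tested. Of 8 leukocyte and 7 stromal markers, PTPRC, COL3A1 and CDH5 were at or near 0, while LYZ (mean 1.744 FPKM), CD68 (1.181 FPKM) and COL1A1 (0.7822 FPKM) were detected.

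Long noncoding RNAs are transcribed and spliced much like messenger RNAs but carry no long reading frame, and "LINC" with a number is a placeholder name for an intergenic one whose function was not known when it was named. SNHG stands for small nucleolar RNA host gene. Their introns carry small nucleolar RNAs (snoRNAs), which guide the chemical modification of ribosomal RNA, and the spliced exons left over are often short-lived because ribosomes engage them and nonsense-mediated decay removes them. Many snoRNA host genes start transcription at a C followed by a run of pyrimidines, a feature shared with ribosomal protein genes.

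The annotation showed how mixed the name class is. Matched by Ensembl gene to GENCODE 29, 110 of the 114 genes were found, and 9 of these are typed there as protein-coding. Among the 9 were LINC00493, now SMIM26, LINC00998, now SMIM30, and LINC00116, now MTLN, each of which encodes a small membrane protein, MTLN a mitochondrial one. Of 109 with a current symbol, 28 have been renamed, among them LINC00657, now NORAD, which binds PUMILIO proteins, LINC00152, now CYTOR, and LINC00338, now SNHG20. A snoRNA or related small Cajal body RNA lies inside 13 of the 13 SNHG genes and inside 2 of the 101 LINC genes, LINC00338 and LINC00888. Exon bases are shared with another gene in 45 of the 114, with one on the opposite strand in 35, and 14 have a near-identical transcript of a gene elsewhere. Whether counting used strand is not given in the sources used here, so reads from the shared bases or near-identical stretches cannot be assigned to either gene. How much is shared varies, and in LINC00511 it is 35 of 27605 exon bases.

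The start sites of 6 SNHG genes are shown because the pyrimidine start is a known feature of snoRNA host genes. The first 4 are the genes that were higher in both comparisons of hairpin-labelled libraries below, and SNHG5 and SNHG12 are an abundant and a less abundant gene that passed neither. Each line holds 50 bases of the sense strand around the RefSeq start (GRCh38.p14), with the first pyrimidine run near the start in capitals where there is one. Any later run is left in lower case.
SNHG1, chr11:62855861-62855910, minus strand: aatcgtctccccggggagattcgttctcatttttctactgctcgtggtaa
SNHG3, chr1:28505918-28505967, plus strand: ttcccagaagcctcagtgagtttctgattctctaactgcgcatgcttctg
SNHG7, chr9:136728160-136728209, minus strand: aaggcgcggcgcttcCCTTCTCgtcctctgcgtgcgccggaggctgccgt
SNHG17, chr20:38435304-38435353, minus strand: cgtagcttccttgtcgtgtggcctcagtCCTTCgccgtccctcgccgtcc
SNHG5, chr6:85678709-85678758, minus strand: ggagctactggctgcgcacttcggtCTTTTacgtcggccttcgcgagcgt
SNHG12, chr1:28581849-28581898, minus strand: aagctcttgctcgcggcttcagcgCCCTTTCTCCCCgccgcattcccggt

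A run was counted where a C, at most 10 bases from the annotated start, was followed by at least 4 bases that were each C or T, on the sense strand. It was present at 7 of the 10 SNHG starts in the RefSeq table (70%), at 23 of 73 LINC starts (31.5%) and at 33.5% of all 35116 starts. SNHG7, SNHG17, SNHG5 and SNHG12 held one, as did SNHG8, SNHG16 and SNHG11, while SNHG1, SNHG3 and SNHG10 had no match in these letters. The run was thus present in SNHG genes that passed the tests below and in ones that did not.

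SNHG RNAs were the abundant end of the class. Their median of mean levels was 17.29 FPKM, with a range of 3.23 to 221.5 FPKM, against a median of 2.401 FPKM and a range of 0.5059 to 215.1 FPKM for the LINC RNAs. Only SNHG5 and LINC00657 exceeded 100 FPKM. Of the 20 RNAs between 10 and 100 FPKM, 9 were SNHG, of the 68 between 1 and 10 FPKM 3 were SNHG, and of the 24 under 1 FPKM none was. The 114 RNAs held 0.283% to 0.328% of all FPKM in a library. Precision followed level: the median SE of a log2 difference was 0.166 for the 47 RNAs under 2 FPKM and 0.0732 for the 22 RNAs at 10 FPKM or more.

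**Figure D1:**
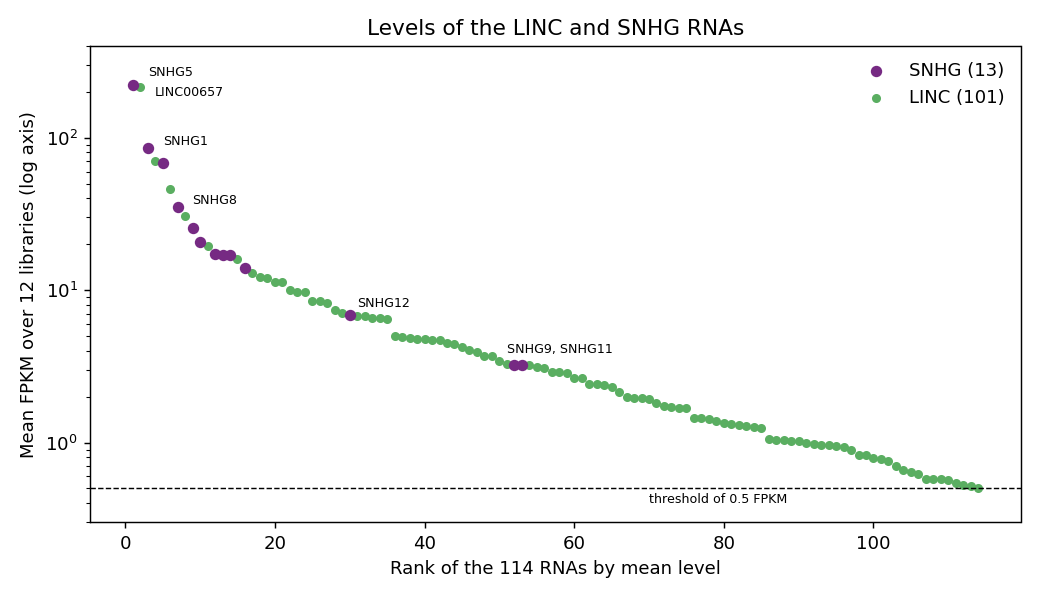
Mean FPKM over 12 libraries (log axis) of the 114 RNAs in order of level, with SNHG and LINC genes in different colours and the threshold as a dashed line. SNHG5 at 221.5 and LINC00657 at 215.1 FPKM stand above the rest, and no SNHG point lies under 3.23 FPKM.

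Differences between groups were tested with limma on log2(FPKM + 0.5) over 17214 genes, a set that included all 114 of these RNAs, and an RNA is called where its Benjamini-Hochberg adjusted p over all 17214 genes is under 0.05. The added 0.5 shrinks the fold changes of RNAs near 1 FPKM. In these bulk libraries fewer cells with an RNA and less of it per cell cannot be told apart.

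LPS alone changed few of these RNAs. Against Control, 4 of 114 were called (3.51%), 1 higher and 3 lower, where 2.76% of all genes tested were called, 1.57% higher and 1.19% lower. The median log2 difference of the 114 was -0.0466, against -0.0378 for all genes. None of the 13 SNHG RNAs was called by limma (1 at an unadjusted p under 0.05, SNHG11). LINC00460, LINC01155, LINC01124 and LINC00341 were the 4. The count was 2 without Control replicate 2, and 0 in a fit restricted to the LPS and Control libraries.

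LINC00460, an intergenic RNA whose nearest coding gene is EFNB2, was the one that rose. It was at 3.51, 3.3 and 2.63 FPKM in LPS, against 2, 1.71 and 1.79 FPKM in Control, so that every LPS library was above every Control library (log2 difference 0.64 ± 0.12, SE, limma adjusted p = 0.0184). That call was lost without Control replicate 2 or 3, and without LPS replicate 1 or 2 (adjusted p 0.00994 to 0.113 over all settings tried). In the PINT shRNA1+LPS libraries LINC00460 was at 2.49, 2.01 and 2.09 FPKM, each below every LPS library (-0.43, limma adjusted p = 0.0204), a comparison that uses the same LPS libraries. That second call was lost without LPS replicate 1 or 2 or PINT shRNA1+LPS replicate 2 or 3 (adjusted p 0.00917 to 0.0754).

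LINC01155 is the locus now called KANTR, which lies on chromosome X next to TSPYL2 and is typed protein-coding in GENCODE 29. It fell to 1.86, 1.97 and 1.52 FPKM in LPS, against 3.23, 4.58 and 3.8 FPKM in Control (-0.93 ± 0.159, SE, limma adjusted p = 0.0109). The PINT shRNA1+LPS libraries, at 2.65, 2.84 and 2.97 FPKM, were above every LPS library (0.54 ± 0.159, SE, limma adjusted p = 0.0258). That comparison uses the same LPS libraries. The PINT shRNA1+LPS libraries lay below every Control library and within the range of the PINT shRNA1 libraries at 2.36, 3.91 and 3.01 FPKM. The second call was lost without LPS replicate 3 and without PINT shRNA1+LPS replicate 2 or 3 (adjusted p 0.0116 to 0.0853 over all settings tried).

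LINC01124 starts 784 bases from SP5, a transcription factor gene that Wnt signalling switches on, and is read in the opposite direction. LINC01124 was at 5.49, 5.58 and 4.77 FPKM in LPS, below all Control libraries at 6.71, 7.83 and 7.32 FPKM (-0.43 ± 0.0735, SE, limma adjusted p = 0.0109). SP5 fell beside it, to 17.8, 18.3 and 15.8 FPKM in LPS, against 23.3, 24.7 and 20.9 FPKM in Control (-0.40 ± 0.0846, SE, limma adjusted p = 0.0349). The SP5 call, unlike that of LINC01124, was lost on leaving out 7 single libraries: Control replicate 1 or 2, LPS replicate 1 or 3, or any PINT shRNA1+LPS library (adjusted p 0.019 to 0.109). Under LPS both were higher in the libraries labelled with the hairpin: LINC01124 at 6.98, 6.81 and 7.3 FPKM (0.38, limma adjusted p = 0.00279) and SP5 at 33.7, 34.9 and 33.1 FPKM (0.95, limma adjusted p = 2.07e-05) in PINT shRNA1+LPS. These comparisons use the same LPS libraries as those with Control above. Without LPS, SP5 was higher in PINT shRNA1 than in Control (0.59, limma adjusted p = 0.000591), while LINC01124, at 7.59, 7.64 and 7.62 FPKM in PINT shRNA1, was not called (0.06, limma adjusted p = 0.569).

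LINC00341 was lower with LPS and lower again in the hairpin-labelled libraries. It was at 5.42, 5.11 and 4.92 FPKM in PINT shRNA1+LPS, 6.52, 6.15 and 5.63 FPKM in PINT shRNA1, 7.59, 6.86 and 6.99 FPKM in LPS and 9.56, 10.7 and 9.06 FPKM in Control. These 4 ranges do not overlap. The differences were -0.42 ± 0.0785 between LPS and Control (SE, limma adjusted p = 0.017), -0.64 between PINT shRNA1 and Control (limma adjusted p = 0.000218) and -0.44 between PINT shRNA1+LPS and LPS (limma adjusted p = 0.00195). The LPS call was lost without Control replicate 2 and without LPS replicate 2 or 3 (adjusted p 0.0145 to 0.114 over all settings tried), and both hairpin calls were kept in each of the 21 other settings. Its Ensembl gene has no match in GENCODE 29, so its overlap with other genes was not checked.

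**Figure D2:**
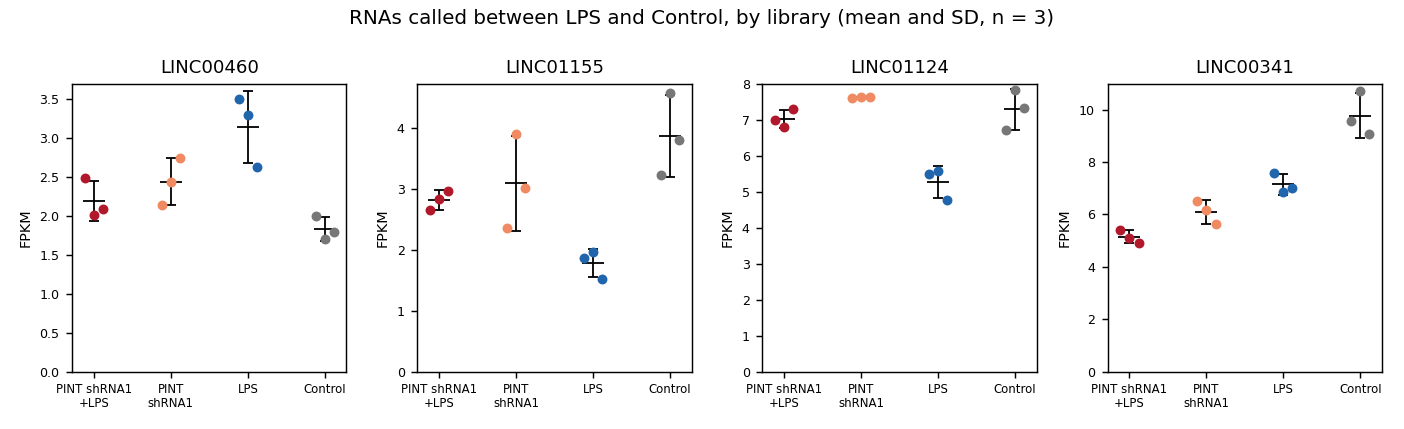
FPKM of the 4 RNAs called between LPS and Control, for each library of the 4 groups (points), with mean and SD over 3 libraries. LINC00460 is highest in LPS, LINC01155 and LINC01124 are lowest in LPS, and LINC00341 is lowest in PINT shRNA1+LPS, at 4.92 to 5.42 FPKM, and highest in Control, at 9.06 to 10.7 FPKM.

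Because LPS acts through NF-kB, the RefSeq promoter windows (250 bases before to 50 after each start) were searched on both strands for the NF-kB consensus. It matched in 8 of the 83 windows found for these RNAs (9.64%) and in 11.3% of all 35116 windows. Of the 4 RNAs called with LPS, the windows of LINC01124 and LINC00460 are shown because the first fell and the second rose. That of LINC01124 has a match, in capitals, and that of LINC00460 has none in these letters.
LINC01124, chr2:170714518-170714817, minus strand, GRCh38.p14: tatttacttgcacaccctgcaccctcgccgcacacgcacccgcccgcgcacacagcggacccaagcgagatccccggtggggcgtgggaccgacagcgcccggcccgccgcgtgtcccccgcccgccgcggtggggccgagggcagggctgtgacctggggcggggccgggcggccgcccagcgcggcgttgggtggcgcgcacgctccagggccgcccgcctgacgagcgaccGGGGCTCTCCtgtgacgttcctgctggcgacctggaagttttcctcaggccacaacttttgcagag
LINC00460, chr13:106376314-106376613, plus strand, GRCh38.p14: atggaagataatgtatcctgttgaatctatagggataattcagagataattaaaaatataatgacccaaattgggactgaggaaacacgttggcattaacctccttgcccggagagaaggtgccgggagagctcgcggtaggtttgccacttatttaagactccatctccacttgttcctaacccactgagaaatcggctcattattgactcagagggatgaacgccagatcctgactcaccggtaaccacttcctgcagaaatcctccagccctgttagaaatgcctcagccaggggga

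The libraries labelled PINT shRNA1 differed from Control in many of these RNAs. Of 114, 31 were called (27.2%), 23 higher and 8 lower. The share called among all genes tested was 27.3%, with 16.9% higher and 10.3% lower, so the share of called RNAs in the class was close to the background. Of the 114, 5 had a mean under 0.5 FPKM in the LPS and Control libraries and met the threshold through the hairpin-labelled ones, with 1 of them called higher here (LINC01132) and 2 under LPS (LINC01132 and LINC00638). For 1, LINC00669, it was the reverse, and it was not called. Of the other 108, 22 were called higher and 8 lower here, and 18 higher and 7 lower under LPS. The median log2 difference was 0.0964, against 0.0567 for all genes. Median scaling of each library gave 18 higher and 11 lower, and quantile normalization gave 17 higher and 12 lower. Under LPS, PINT shRNA1+LPS against LPS, 27 of 114 were called (23.7%), 20 higher and 7 lower, where 29.2% of all genes were called, 17.7% higher and 11.6% lower. Here the median-scaled libraries gave 18 higher and 10 lower, and quantile normalization 17 higher and 10 lower. The count without LPS was 17 without Control replicate 3, and also without PINT shRNA1 replicate 1 or 2.

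The 2 comparisons share no library. Called in both were 19 RNAs, 14 higher, 5 lower and 0 in opposite directions, which is 61.3% of those called without LPS and 70.4% of those called under LPS. Among all genes the same shares were 71.1% and 66.3%. Across the 114 RNAs the Pearson correlation of the 2 log2 differences was 0.748, and across all genes 0.693. These are descriptions over RNAs of the same libraries, not over replicates. Epithelial markers moved in the same comparisons: of 7 tested, 5 were lower and 1 higher in each, and the summed level of the 8 was 1550 to 1610 FPKM in PINT shRNA1+LPS, 1440 to 1540 FPKM in PINT shRNA1, 2360 to 2410 FPKM in LPS and 2340 to 2670 FPKM in Control. The summed level of 8 leukocyte markers was 3.73 to 4.31, 3.61 to 5.02, 3.01 to 4.11 and 3.06 to 4.04 FPKM in the same groups. Of the 3 leukocyte markers tested CD68 was called higher in both comparisons (0.63 under LPS, limma adjusted p = 0.00285, and 0.64 without, limma adjusted p = 0.00295), and LYZ was not called. The part of these shifts, and of the difference in depth, in the results below was not tested.

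**Figure D3:**
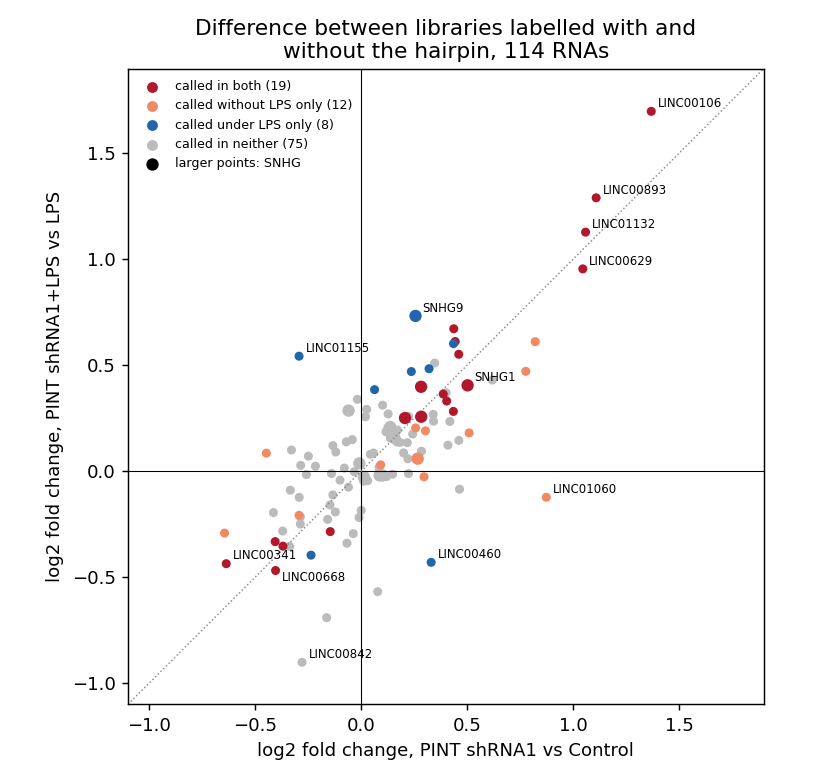
Log2 difference of each of the 114 RNAs in PINT shRNA1 against Control (x axis) and in PINT shRNA1+LPS against LPS (y axis), with colours for where it was called, larger points for SNHG genes and a dotted line where both are equal. LINC00106, LINC00893, LINC01132 and LINC00629 lie furthest up and right, and LINC00460, LINC01155 and LINC01060 lie off the line.

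The SNHG RNAs that were called were all higher in the libraries labelled with the hairpin. In each comparison 5 of 13 were called higher and 0 lower (38.5%), where 29.2% of all genes were called under LPS and 27.3% without, and 17.7% and 16.9% of all genes were called higher. SNHG1, SNHG3, SNHG7 and SNHG17 were called in both. The median log2 difference of the 13 was 0.209 under LPS, against 0.0534 for all genes, and 0.157 without, against 0.0567 for all genes. Their summed level was 536.1 to 553.9 FPKM in PINT shRNA1+LPS and 563.3 to 594.7 FPKM in PINT shRNA1, against 492.4 to 517.3 FPKM in LPS and 493.6 to 524.3 FPKM in Control. The 2 most abundant, SNHG5 and SNHG1, held 55.1% to 60.1% of this sum in each library, so it mostly reflects those 2. The summed level of the 101 LINC RNAs overlapped between PINT shRNA1+LPS, at 693.6 to 716.2 FPKM, and LPS, at 697.3 to 717.7 FPKM, and also between PINT shRNA1, at 718.1 to 761.9 FPKM, and Control, at 718.3 to 725.7 FPKM.

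SNHG1, which holds 7 snoRNA genes, had the largest of the SNHG differences without LPS. Its levels were 87.1, 96.6 and 93.4 FPKM in PINT shRNA1+LPS, against 72.9, 70 and 66 FPKM in LPS (0.41 ± 0.1, SE, limma adjusted p = 0.0116). They were 98.7, 98.1 and 118 FPKM in PINT shRNA1, against 76.6, 83 and 62.9 FPKM in Control (0.50 ± 0.1, SE, limma adjusted p = 0.00408). All 6 hairpin-labelled libraries were above all 6 others. SLC3A2, the amino acid transporter subunit gene that starts 188 bases away in the opposite direction, was not called in either comparison, with differences of -0.14 under LPS (limma adjusted p = 0.285) and -0.18 without (limma adjusted p = 0.16).

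SNHG7, host of 4 snoRNA genes, was at 29, 28.7 and 31.9 FPKM in PINT shRNA1+LPS, against 21.2, 23.2 and 23.3 FPKM in LPS (0.40 ± 0.0735, SE, limma adjusted p = 0.00229). It was at 27.2, 25 and 29.2 FPKM in PINT shRNA1, against 22.8, 23.5 and 20.5 FPKM in Control (0.28 ± 0.0735, SE, limma adjusted p = 0.0159). The groups do not overlap in either comparison. The second call was lost without Control replicate 3 or PINT shRNA1 replicate 3 (adjusted p 0.0118 to 0.0608 over all settings tried). SNHG7 shares 1094 exon bases with FAM69B on the opposite strand, so its level is uncertain by that gene's reads.

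SNHG3 was at 21.1, 23.4 and 23.2 FPKM in PINT shRNA1+LPS, against 18.2, 19 and 19.4 FPKM in LPS (0.25 ± 0.0507, SE, limma adjusted p = 0.00392). It was at 21.4, 22.2 and 22.7 FPKM in PINT shRNA1, against 19.3, 18.7 and 19.1 FPKM in Control (0.21 ± 0.0507, SE, limma adjusted p = 0.012), again with no overlap. It shares 242 exon bases with RCC1, a chromatin factor gene on the same strand whose annotated start lies 37 bases away. RCC1 was itself higher, by 0.75 under LPS (limma adjusted p = 0.0132) and by 0.91 without (limma adjusted p = 0.00512), and how reads were divided between them was not tested.

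SNHG17, host of 5 snoRNA genes, was at 20.2, 18.5 and 17.9 FPKM in PINT shRNA1+LPS, against 15.7, 15.4 and 15.9 FPKM in LPS (0.26 ± 0.0847, SE, limma adjusted p = 0.0425). It was at 19.1, 18 and 17.3 FPKM in PINT shRNA1, against 16.3, 15.6 and 12.7 FPKM in Control (0.28 ± 0.0847, SE, limma adjusted p = 0.0301). Although the groups do not overlap, these calls were not stable. The one under LPS was lost in 11 of 21 settings, among them each omission of an LPS or PINT shRNA1+LPS library and that of PINT shRNA1 replicate 2 (adjusted p 0.00788 to 0.144). The one without LPS was lost in 5, among them the omission of Control replicate 3 and of PINT shRNA1 replicate 1 or 2 (adjusted p 0.0163 to 0.099).

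SNHG6 and SNHG9 were called in one comparison each. SNHG6 was at 83, 73 and 68.5 FPKM in PINT shRNA1, above Control at 63.2, 63.2 and 59.4 FPKM (0.27 ± 0.0614, SE, limma adjusted p = 0.00867), and at 69.5, 66.7 and 69.8 FPKM in PINT shRNA1+LPS, against 64.6, 67.2 and 65.9 FPKM in LPS, where the groups overlap (0.06, limma adjusted p = 0.517). SNHG9, a short RNA that starts 99 bases from the ribosomal protein gene RPS2, was at 3.98, 4.54 and 3.49 FPKM in PINT shRNA1+LPS, against 2.04, 3.41 and 1.48 FPKM in LPS (0.73 ± 0.23, SE, limma adjusted p = 0.0348). That call was lost without LPS replicate 1 or 3 and without any 1 PINT shRNA1+LPS library (adjusted p 0.00445 to 0.117 over all settings tried). Neither RNA was called in the interaction, with adjusted p of 0.615 for SNHG6 and 0.77 for SNHG9 by limma, so a difference between the comparisons was not shown.

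The other 7 SNHG RNAs were called in no comparison. SNHG5, the most abundant, was at 208, 209 and 222 FPKM in PINT shRNA1+LPS, 238, 229 and 239 FPKM in PINT shRNA1, 215, 220 and 212 FPKM in LPS and 217, 220 and 228 FPKM in Control. PINT shRNA1 was the highest of the 4 groups, by 0.09 against Control (limma adjusted p = 0.0938). SNHG16 ranged over 16 to 18.5 FPKM in all 12 libraries and SNHG8 over 31.1 to 37.6 FPKM. SNHG12 was too variable to compare: LPS libraries were at 4.61, 9.96 and 5.84 FPKM, and Control libraries at 7.86, 4.64 and 6.24 FPKM. SNHG10, SNHG15 and SNHG11 differed by at most 0.29 in either hairpin comparison, with adjusted p of 0.135 or more by limma.

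**Figure D4:**
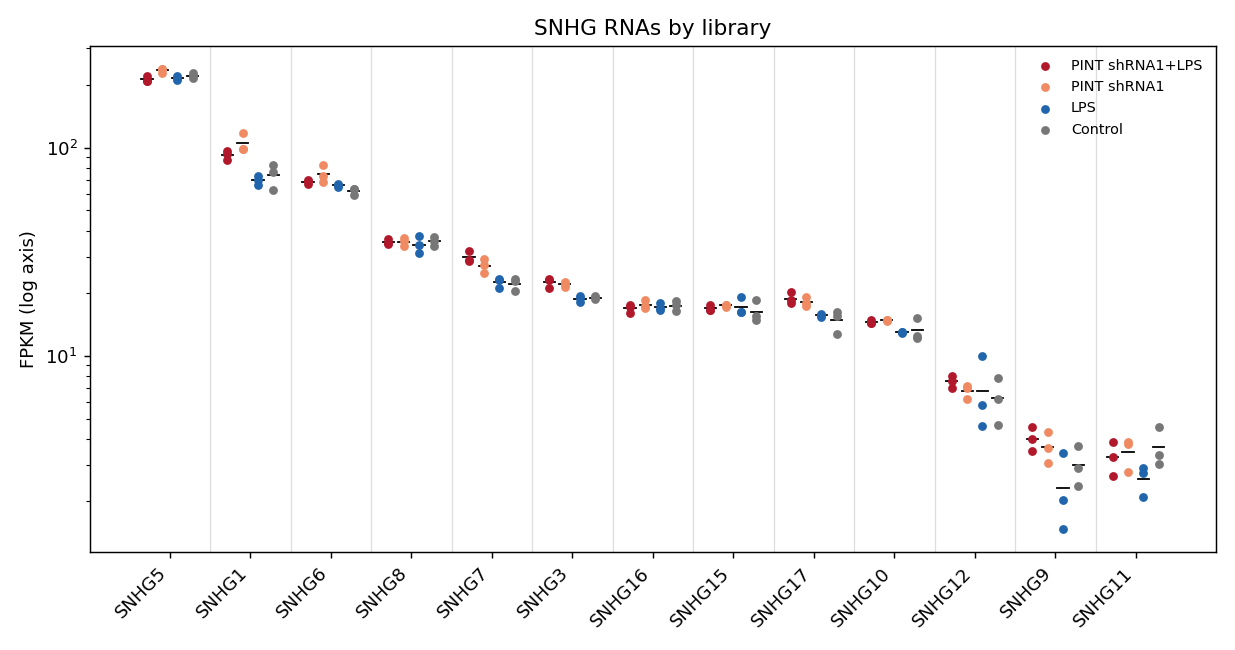
FPKM (log axis) of the 13 SNHG RNAs in each library, in order of mean level, with groups from left to right PINT shRNA1+LPS, PINT shRNA1, LPS and Control and bars at the group means. The hairpin-labelled points lie above the others for SNHG1, SNHG7, SNHG3 and SNHG17, and SNHG12, SNHG9 and SNHG11 spread most within groups.

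Among LINC RNAs, 18 were higher and 8 lower of 101 in PINT shRNA1 against Control (25.7% called, against 27.3% of all genes), and 15 were higher and 7 lower in PINT shRNA1+LPS against LPS (21.8% called, against 29.2% of all genes). Those called higher in both were LINC00106, LINC00622, LINC00629, LINC00680, LINC00893, LINC00969, LINC01106, LINC01123, LINC01132 and LINC01134. Those called lower in both were LINC00152, LINC00341, LINC00511, LINC00668 and LINC00963. Not all were stable. The LINC00622 call without LPS was lost in 8 of 21 settings, with both scalings among them (adjusted p 0.00972 to 0.0914). That of LINC01134 was lost in 6, with quantile normalization among them (adjusted p 0.0218 to 0.102). LINC00963 lost its call in 6 settings without LPS (adjusted p 0.0139 to 0.101) and in 6 under LPS (0.00984 to 0.107). A difference of 1 on the log2 scale was reached by 4 of the 31 calls without LPS and by 3 of the 27 under LPS. Both counts include LINC01132, which met the threshold through the hairpin-labelled libraries. The share of such differences among all genes called was not computed.

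LINC00106, a short RNA of 592 annotated exon bases on chromosome X near SLC25A6, showed the largest difference. Where a gene is annotated on both chromosomes X and Y, only the X entry was kept. A Y copy of LINC00106 would therefore not have been seen. It was at 4.42, 5.1 and 4.28 FPKM in PINT shRNA1+LPS, against 1.63, 0.826 and 0.862 FPKM in LPS (1.70 ± 0.18, SE, limma adjusted p = 6.93e-05). It was at 6.35, 5.05 and 4.69 FPKM in PINT shRNA1, against 1.67, 2.04 and 1.58 FPKM in Control (1.37 ± 0.18, SE, limma adjusted p = 0.000322). The lowest hairpin-labelled library was above the highest of the others in both comparisons, and both calls were kept in all 21 other settings.

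LINC01132, an intergenic RNA whose nearest coding gene is IRF2BP2, is among the genes described only because of the hairpin-labelled libraries: its mean over the LPS and Control libraries, 0.491 FPKM, is under the threshold, so its difference is given as a description of a gene chosen on the side where it is high. It was at 1.68, 1.56 and 1.61 FPKM in PINT shRNA1+LPS, against 0.414, 0.519 and 0.476 FPKM in LPS (1.13 ± 0.11, SE, limma adjusted p = 3.83e-05). It was at 1.68, 1.62 and 1.49 FPKM in PINT shRNA1, against 0.555, 0.371 and 0.608 FPKM in Control (1.06 ± 0.11, SE, limma adjusted p = 6.82e-05). At these levels the added 0.5 matters most, and the log2 difference ran over 0.78 to 1.49 without LPS and 0.83 to 1.60 under LPS across the settings tried, always called.

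LINC00629, on chromosome X near PLAC1, was at 3.3, 3 and 4.21 FPKM in PINT shRNA1+LPS, against 1.31, 1.31 and 2.12 FPKM in LPS (0.95 ± 0.154, SE, limma adjusted p = 0.00101). It was at 3.47, 4.09 and 4.11 FPKM in PINT shRNA1, against 1.54, 1.68 and 1.64 FPKM in Control (1.05 ± 0.154, SE, limma adjusted p = 0.000655). Its groups do not overlap, and both calls were kept in all 21 other settings. LINC00106, LINC00629 and LINC00893 are 3 of the 8 RNAs of the 114 with an entry on chromosome X, and the only ones of the 8 called without LPS. Whether any of the 8 is also annotated on chromosome Y was not checked. Under LPS, LINC01155 and LINC00685 were also called higher. LINC00630, LINC00894 and LINC00087 were called in neither hairpin comparison. The share called among all genes on chromosome X was not computed.

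LINC00893, renamed EOLA1-DT, spread far more. It was at 2.46, 3.19 and 3.28 FPKM in PINT shRNA1+LPS, against 0.639, 1.49 and 0.746 FPKM in LPS (1.29 ± 0.319, SE, limma adjusted p = 0.0114), a call kept in every setting. It was at 2.99, 3.36 and 3.32 FPKM in PINT shRNA1, against 2.45, 0.56 and 1.14 FPKM in Control (1.11 ± 0.319, SE, limma adjusted p = 0.0254), a call lost without Control replicate 2 or 3 or without any 1 PINT shRNA1 library (adjusted p 0.00254 to 0.075). It shares exons with CXorf40A on the opposite strand and has a near-identical copy in LINC00894, so its level is uncertain.

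LINC01123 and LINC01106 lie apart on chromosome 2 and are near-identical copies of each other, so reads could be divided between them. LINC01123 was at 13.3, 13.3 and 13.2 FPKM in PINT shRNA1+LPS, against 11.1, 10.3 and 11 FPKM in LPS, and at 13.8, 13.9 and 14.6 FPKM in PINT shRNA1, against 11.5, 9.76 and 9.72 FPKM in Control. LINC01106 was at 12.1, 12.5 and 12.9 FPKM in PINT shRNA1+LPS, against 9.24, 9.05 and 10.5 FPKM in LPS, and at 13.3, 13.2 and 13.4 FPKM in PINT shRNA1, against 11, 9.05 and 10.2 FPKM in Control. All 4 differences, 0.28 to 0.44 on the log2 scale, were called in every setting, but the 2 rows are not independent measurements. LINC00680 and LINC00969 were also called higher in both comparisons and also have near-identical copies elsewhere. The LINC00969 call under LPS was lost with median scaling, with no filter, and without any 1 LPS library or PINT shRNA1+LPS replicate 1 or 3 (adjusted p 0.00848 to 0.0838). The LINC00680 call without LPS was lost without Control replicate 1 or 3 or PINT shRNA1 replicate 1 (adjusted p 0.00768 to 0.0596).

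The lower RNAs were fewer and included some of the most abundant. LINC00511 was at 41, 39.2 and 43.2 FPKM in PINT shRNA1+LPS, against 52.2, 55 and 48.5 FPKM in LPS (-0.33 ± 0.0596, SE, limma adjusted p = 0.00192). It was at 40.9, 38.3 and 38.5 FPKM in PINT shRNA1, against 53.5, 54 and 49 FPKM in Control (-0.41 ± 0.0596, SE, limma adjusted p = 0.000653). LINC00668 was at 3.24, 3.57 and 3.14 FPKM in PINT shRNA1+LPS, against 5.1, 4.89 and 4.36 FPKM in LPS (-0.47 ± 0.079, SE, limma adjusted p = 0.00132), and at 3.88, 3.48 and 3.73 FPKM in PINT shRNA1, against 4.82, 5.03 and 5.31 FPKM in Control (-0.40 ± 0.079, SE, limma adjusted p = 0.00361). For both RNAs every hairpin-labelled library was below every other, and the calls were kept in each of the 21 other settings. LINC00668 shares exon bases with the pseudogene SCML2P1 on the opposite strand.

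LINC00152, the cytoskeleton-linked RNA CYTOR, was at 62.6, 63.9 and 61.5 FPKM in PINT shRNA1+LPS, against 78, 74.9 and 76.7 FPKM in LPS (-0.29 ± 0.0454, SE, limma adjusted p = 0.000941). It was at 69.3, 61.6 and 68.8 FPKM in PINT shRNA1, against 74.3, 73.1 and 73.3 FPKM in Control (-0.15 ± 0.0454, SE, limma adjusted p = 0.0354). The second call was lost in 8 of 21 settings, among them the omission of any Control library, of PINT shRNA1 replicate 2 and of PINT shRNA1+LPS replicate 1 (adjusted p 0.0079 to 0.104). CYTOR has a near-identical copy, the gene listed as MIR4435-1HG, which was also lower in both comparisons (-0.22 in each, limma adjusted p = 0.00224 under LPS and 0.00229 without), and reads may be divided between them.

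**Figure D5:**
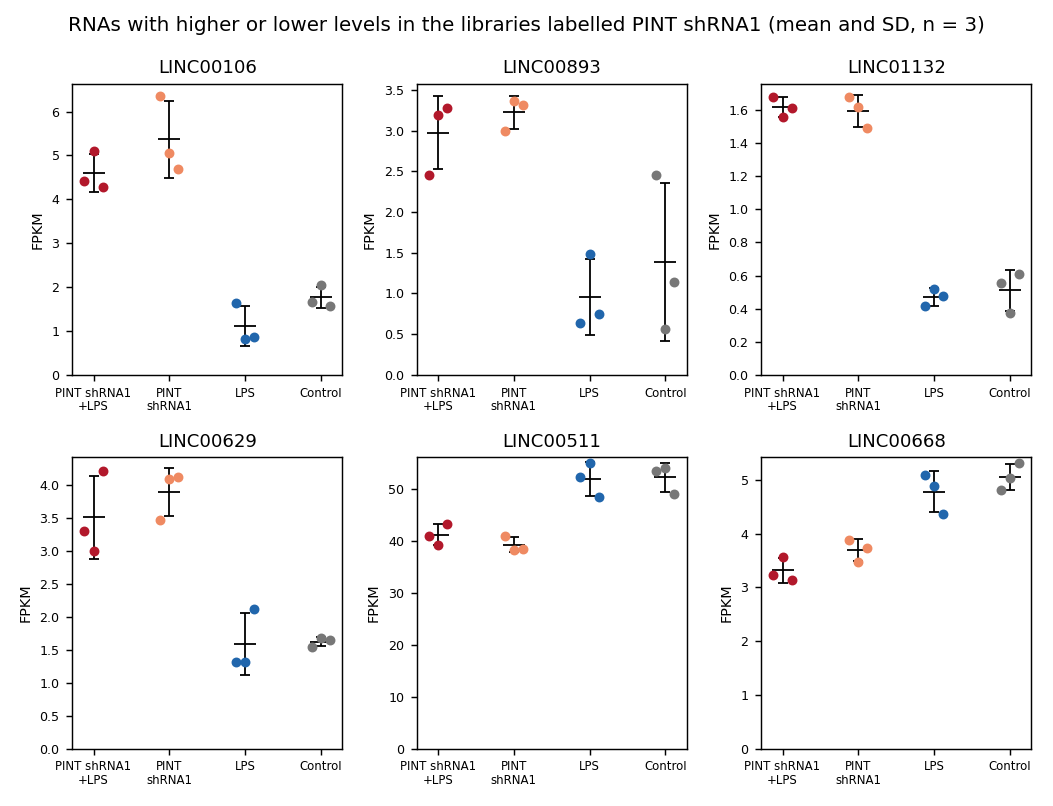
FPKM of 4 LINC RNAs called higher and 2 called lower in both hairpin comparisons, for each library (points), with mean and SD over 3 libraries. LINC01132 lies at 1.49 to 1.68 FPKM in all 6 hairpin-labelled libraries, and LINC00893 has 1 Control library, at 2.45 FPKM, close to them.

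Some calls came from small or uneven differences. LINC00657 (NORAD) was at 231, 228 and 218 FPKM in PINT shRNA1, against 211, 210 and 213 FPKM in Control. The difference of 0.09 (limma adjusted p = 0.0397) was called in only 6 of the 21 other settings (adjusted p 0.017 to 0.322). It was lost under both scalings, without any 1 of the Control or PINT shRNA1+LPS libraries, and without LPS replicate 2 or PINT shRNA1 replicate 1 or 2. LINC00984, the coding gene INAFM2, was called higher without LPS at 0.26 (limma adjusted p = 0.0442) and kept in 7 settings (adjusted p 0.0276 to 0.141). It too was lost under both scalings, without any 1 Control library, and without LPS replicate 3, PINT shRNA1 replicate 1 or 2 or PINT shRNA1+LPS replicate 1 or 2. LINC01060 was at 1.77, 1.7 and 2.05 FPKM in PINT shRNA1+LPS, 2.88, 1.44 and 1.68 FPKM in PINT shRNA1, 2.42, 1.85 and 1.9 FPKM in LPS and 0.473, 0.745 and 1.42 FPKM in Control. Its call without LPS (0.87 ± 0.251, SE, limma adjusted p = 0.0253) was lost without Control replicate 1 or 2 or PINT shRNA1 replicate 1 (adjusted p 0.00568 to 0.0912). The difference for LPS against Control was of like size and not called (0.94 ± 0.251, SE, limma adjusted p = 0.0803). The widest SE, 0.444, was that of LINC00842, whose Control libraries were at 0.879, 2.75 and 0.561 FPKM.

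LPS in the hairpin-labelled cells, PINT shRNA1+LPS against PINT shRNA1, called 0 of the 114 RNAs by limma, where 0.186% of all genes were called, 0.163% higher and 0.0232% lower. At an unadjusted p under 0.05 there were 9 (7.89%, against 8.76% of all genes). LINC00622 had the largest difference, at 1.84, 1.81 and 2.24 FPKM in PINT shRNA1+LPS, against 1.22, 1.35 and 1.11 FPKM in PINT shRNA1 (0.51 ± 0.132, SE, limma adjusted p = 0.248), and its groups do not overlap.

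The interaction asks whether the response to LPS differed between cells labelled with and without the hairpin. It too called 0 of 114 by limma, where 0.128% of all genes were called (0.0349% higher and 0.0929% lower), and 7 RNAs had an unadjusted p under 0.05 (6.14%, against 7.74% of all genes). The smallest unadjusted p were those of LINC00460 (-0.76 ± 0.17, SE, limma adjusted p = 0.2), LINC01155 (0.84 ± 0.225, SE, limma adjusted p = 0.328) and LINC01124 (0.32 ± 0.104, SE, limma adjusted p = 0.47). For these 3, PINT shRNA1+LPS differed from PINT shRNA1 by -0.12, -0.09 and -0.11, and LPS from Control by 0.64, -0.93 and -0.43. The difference of the responses thus did not pass the threshold, although the response passed it in the wild-type cells and not in the hairpin-labelled ones.

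At 13 of these RNAs a coding gene starts within 2000 bases and is read away in the opposite direction, as at LINC01124 and SP5. A short overlap of the starts was allowed. Opposite-strand pairs that start as close but are read across each other, as SNHG10 and GLRX5 at 1369 bases, were not counted among the 13. Where their coding gene was tested, they stand among the other pairs below. For LPS against Control, the correlation between the log2 differences of the RNA and its partner was 0.808 over these 13 pairs and 0.169 over 75 other pairs of an RNA and its nearest coding gene, both as descriptions over pairs measured in the same libraries. It was 0.259 and 0.0819 in PINT shRNA1 against Control, and 0.321 and 0.149 in PINT shRNA1+LPS against LPS. LINC01137 lies 141 bases from ZC3H12A, which encodes an RNase that degrades inflammatory messenger RNAs. ZC3H12A rose to 11.7, 12.3 and 10.3 FPKM in LPS, against 6.48, 6.92 and 6.05 FPKM in Control (0.77 ± 0.0878, SE, limma adjusted p = 0.000801). LINC01137 was at 1.87, 1.73 and 1.01 FPKM in LPS, against 1.35, 0.327 and 0.73 FPKM in Control, where the groups overlap (0.70 ± 0.257, SE, limma adjusted p = 0.198). For LPS against Control, 2 of the 13 partners were called, ZC3H12A and SP5, and 1 of the RNAs, LINC01124. These 2 partners differed most of the 13. The correlation of 0.808 may therefore rest on their 2 pairs, and it was not computed without them.

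The RNA and its partner had the same sign in 9 of the 13 pairs for LPS against Control (40 of 75 other pairs). Such pairs numbered 10 (36 of 75) for PINT shRNA1 against Control and 9 (43 of 75) for PINT shRNA1+LPS against LPS. Neither the difference between the correlations above nor that between these counts was tested. Without LPS, LINC01004 and KMT2E (0.51, limma adjusted p = 0.0267, and 0.24, limma adjusted p = 0.00911) and LINC00205 and POFUT2 (0.30, limma adjusted p = 0.0191, and 0.41, limma adjusted p = 0.00797) were both higher in PINT shRNA1. The LINC01004 call was lost without Control replicate 3 or PINT shRNA1 replicate 1 or 2 (adjusted p 0.0122 to 0.0872 over all settings tried), and that of LINC00205 without Control replicate 2 or 3 or PINT shRNA1 replicate 2 (adjusted p 0.00727 to 0.0665 over single omissions). Under LPS, LINC01134 was higher, at 1.62, 1.62 and 1.7 FPKM in PINT shRNA1+LPS, against 0.876, 0.85 and 0.811 FPKM in LPS (0.67 ± 0.13, SE, limma adjusted p = 0.00303). Its partner C1orf174, 79 bases away, was lower, at 7.43, 7.82 and 7.84 FPKM in PINT shRNA1+LPS, against 11.8, 10.1 and 9.78 FPKM in LPS (-0.43 ± 0.112, SE, limma adjusted p = 0.0151). The C1orf174 call was lost without LPS replicate 1 or PINT shRNA1+LPS replicate 1 (adjusted p 0.00591 to 0.0555), while the LINC01134 call under LPS was kept in all 21 other settings.

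Other genes of the snoRNA pathway were counted beside the SNHG RNAs. Of 35 other snoRNA host genes, 6 were higher and 7 lower in PINT shRNA1 against Control (median -0.0108), and 3 were higher and 9 lower in PINT shRNA1+LPS against LPS (median -0.0868). Of all genes 16.9% were higher and 10.3% lower in the first comparison (median 0.0567), and 17.7% higher and 11.6% lower in the second (median 0.0534). Split by kind after their values were seen, 5 of the 15 ribosomal protein hosts were lower and 0 higher without LPS, and 7 were lower and 0 higher under LPS. RPL23A was lower in both (-0.31 under LPS, limma adjusted p = 0.000252, and -0.22 without, limma adjusted p = 0.00262). The noncoding hosts GAS5, at 0.21 (limma adjusted p = 0.0098), and ZFAS1, at 0.20 (limma adjusted p = 0.035), were higher in PINT shRNA1 than in Control and not called under LPS (0.01, limma adjusted p = 0.9, and 0.05, limma adjusted p = 0.552). In LPS against Control, 2 of the 35 were higher, NCL and WDR43, and 0 lower (5.71% called, against 2.76% of all genes). Over single omissions the adjusted p of these 2 calls ran up to 0.13 for NCL, lost on 10 of 12, and to 0.0612 for WDR43, lost without Control replicate 1 or LPS replicate 3. The ZFAS1 call was lost without Control replicate 1 or 3 or PINT shRNA1 replicate 1 or 2 (adjusted p 0.0137 to 0.124).

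Of 17 proteins that bind or assemble snoRNAs, 5 were higher and 0 lower in each hairpin comparison. The share called, 29.4%, was close to the 29.2% of all genes under LPS and the 27.3% without, and the medians were 0.0311 under LPS and 0.129 without, against 0.0534 and 0.0567 for all genes. NOP56, a core protein of box C/D particles, was at 244, 238 and 253 FPKM in PINT shRNA1+LPS, against 213, 208 and 221 FPKM in LPS (0.19, limma adjusted p = 0.00134), and at 248, 241 and 244 FPKM in PINT shRNA1, against 206, 210 and 210 FPKM in Control (0.23, limma adjusted p = 0.000616). NAF1, SHQ1 and NOP10, which serve box H/ACA particles, were also called higher in both, and NOP56 hosts snoRNAs itself and stands in both lists. Of 17 nonsense-mediated decay factors, 1 was higher and 2 lower under LPS and 2 were higher and 2 lower without. That is 17.6% called under LPS, against 29.2% of all genes, and 23.5% without, against 27.3% of all genes. SMG1, a kinase of the decay pathway, was higher in LPS than in Control (0.23, limma adjusted p = 0.049) and lower in PINT shRNA1+LPS than in LPS (-0.26, limma adjusted p = 0.00427). Both comparisons use the same LPS libraries. In LPS against Control 0 snoRNA-binding proteins were called by limma (3 at an unadjusted p under 0.05), where 2.76% of all genes were called. SMG1 was the 1 decay factor called in it (5.88% of the 17). That call was lost on leaving out 11 of the 12 libraries, each in turn (adjusted p 0.0164 to 0.124). The NOP10 calls were lost on 9 of 12 such omissions under LPS (adjusted p 0.012 to 0.131) and without PINT shRNA1 replicate 1 or 3 in the other comparison (adjusted p 0.00192 to 0.0535).

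Other long noncoding RNAs with names of their own were counted in the same way. This list repeats the 4 noncoding snoRNA hosts counted above, GAS5, ZFAS1, DANCR and EPB41L4A-AS1. GAS5 and ZFAS1 are thus among those called higher without LPS in both lists. Of 28 tested, 9 were higher and 1 lower in each hairpin comparison. That is 35.7% called, against 29.2% of all genes under LPS and 27.3% without, with medians of 0.126 under LPS and 0.191 without, against 0.0534 and 0.0567 for all genes. The RNAs called higher include MIR210HG in both comparisons and UCA1 under LPS, which were tested only because of the hairpin-labelled libraries. The share without them was not computed. Of the 28, 0 were called in LPS against Control by limma (5 at an unadjusted p under 0.05), where 2.76% of all genes were called. NEAT1, the scaffold of nuclear paraspeckles, was at 24.4, 26 and 24.9 FPKM in PINT shRNA1+LPS, against 17.3, 16.1 and 15.6 FPKM in LPS (0.61 ± 0.0626, SE, limma adjusted p = 5.71e-05). It was at 28.2, 30.5 and 27 FPKM in PINT shRNA1, against 18, 18.6 and 16.6 FPKM in Control (0.67 ± 0.0626, SE, limma adjusted p = 3.29e-05). MIR210HG, the host of a hypoxia-induced microRNA, was higher by 1.43 under LPS (limma adjusted p = 0.000986) and by 1.26 without (limma adjusted p = 0.00238). Only 2 of the 6 LPS and Control libraries held 0.5 FPKM or more of it, so it was tested only because of the hairpin-labelled ones. The same is true of UCA1, which reached 0.5 FPKM in 0 of those 6. UCA1 was at 0.962, 0.855 and 1.1 FPKM in PINT shRNA1+LPS, against 0.382, 0.166 and 0.179 FPKM in LPS (1.00 ± 0.141, SE, limma adjusted p = 0.000471), and was not called without LPS (0.30, limma adjusted p = 0.151).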

How the data were processed

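The authors deposited FPKM per Ensembl gene, which were used unchanged. Per the submitters' processing notes, fastp, HISAT2 2.1.0, StringTie 1.3.4d and GRCh37/hg19 were named, with no role given. The labels list 15 samples. Each of 3 PINT shRNA1 RNA numbers has 2 samples but 1 column, and whether a column holds both is not recorded. Another 6 columns were not used. Depth relative to the first Control library came from the most frequent ratio of low FPKM values. In the other libraries 32 to 58 genes held that ratio, of 5373 to 6821 with low values, so it is a rough estimate.

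A gene was tested if 3 or more of the 12 libraries held 0.5 FPKM or more. The test was limma 3.58.1 (R 4.3.3) on log2(FPKM + 0.5). One group-means fit with an intensity trend and two-sided contrasts was used, with 8 residual degrees of freedom and Benjamini-Hochberg adjustment over all 17214 genes, and checked on simulated data. For 3 against 3 libraries an exact permutation test cannot go below p = 0.1 and is not given. Annotation came from GENCODE 29 by Ensembl gene, near-identical transcripts (97% identity or more) from BLAST 2.17.0, and promoters from RefSeq (GRCh38.p14). No coordinates were converted.

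The RNAs and lists were chosen with earlier results of these data known. Named are all SNHG, the most abundant LINC and, of LINC called with groups that do not overlap, those with the largest differences, the smallest interaction p and the called list genes with the smallest p. LINC00842, LINC00984, LINC01060, LINC01137, GAS5, ZFAS1, SMG1, UCA1 and the start-site pairs were added after values were seen. Alternatives were median and quantile scaling, pseudocounts of 0.1 and 1, no filter, a filter of 1 FPKM, no trend, a replicate term, only the groups compared and leaving out each library.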

Additional observations from a re-analysis of the deposited data

How the results depend on the processing

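Counts of RNAs called, of 114, moved as follows. For LPS against Control, 4 became 0 with only the groups compared, and ran from 2 to 5 when each library was left out. For PINT shRNA1 against Control, 31 became 16 with no filter and 20 with only the groups compared, and ran from 17 to 32 with libraries left out. For PINT shRNA1+LPS against LPS, 27 ran from 20 to 31, lowest without PINT shRNA1+LPS replicate 3. For PINT shRNA1+LPS against PINT shRNA1, 0 became 1 with quantile normalization, and this count and that of the interaction were 0 without any one library. With the replicate number as a block the counts were 4, 29, 27, 0 and 0 in the same order, the interaction last. Deviations of libraries with the same number correlated at -0.0476 to 0.0569 and of other numbers at -0.0582 to 0.0463. No shift common to libraries of the same number was thus seen over all genes tested. A pairing that touches few genes would not show in this check. Of 57 calls of named RNAs, 30 were kept in every setting and none changed direction. The cause of these changes was not tested. RNAs under 2 FPKM carry the widest errors, and absolute depth is unknown.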
